A study of Mus musculus with 90 samples.

Results

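CT26 cells that had been kept in interferon gamma (IFNγ) for 2 weeks were compared with CT26 cells of the same age in culture that had not received it. The comparison rests on 6 of the 90 RNA libraries of the study. They were chosen by their labels alone: 3 replicates labelled CT26, 2 weeks, IFNg, with 0 h of rechallenge, and 3 replicates labelled CT26, 2 weeks, Ctrl, 0 h. CT26 is a mouse colon carcinoma line from a BALB/c animal. The treated cells received recombinant mouse IFNγ at 50 IU/mL throughout the 2 weeks, and the controls received no IFNγ for the same time. The paper names bovine serum albumin (BSA) as the control treatment in its other 2-week tumour cell cultures. The whole study followed CT26 and the mouse melanoma line YUMM2.1 at 0, 1, 2 and 3 weeks of exposure, with a further dose of IFNγ for 2 h or 24 h in some cultures. Both lines were grown alone, with no immune cells or host tissue, and each group is 3 cultures of 1 established line. The question put by the comparison is which transcripts differ in tumour cells after a lasting IFNγ exposure that is not topped up just before harvest.

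IFNγ is the cytokine that activated T cells and natural killer cells use to alert the tissue around them. Its receptor signals through the kinases JAK1 and JAK2 to gamma-activated sites (GAS) in DNA and switches on early targets such as IRF1, which with its relatives acts at interferon-stimulated response elements (ISRE) and extends the programme to antigen presentation, cell-autonomous defence and antiviral genes. In tumours the same programme makes cells more visible to T cells and also raises inhibitory ligands such as PD-L1.

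Each library is a 3′ end count table, in which a gene's value is the number of reads assigned to it. The 6 totals ran from 947459 to 1736116 counts, with a median of 1139178.5. Levels are given as CPM, a library's counts scaled to a common total with TMM factors applied, and changes as log2 of IFNγ over control with a standard error (SE). At this depth 1 read is worth 0.578 to 1.15 CPM, so genes under about 3 CPM rest on very few reads. The replicate libraries of a group were no copies of each other: the chi-square per degree of freedom between pairs of one group was 1.86 to 4.10. Of the 8 colon epithelial markers examined, Krt18 and Krt20 were detected in all 6 libraries, at group means of 14.1 and 54.3 CPM in controls and 16.5 and 49.6 CPM with IFNγ. Krt8, Krt19, Epcam, Cdh1, Cdx2 and Vil1 were at 0 in all 6, so the epithelial label rests on those 2 keratins. The summed level of the 8 was 65.5 to 73.0 CPM in controls and 62.6 to 71.1 CPM with IFNγ. The melanocyte list summed to 2.21 to 10.3 CPM in controls and 3.57 to 10.4 CPM with IFNγ, and the leukocyte list, nearly all of it Cd14, to 44.3 to 67.8 and 37.0 to 59.0 CPM. The fibroblast and endothelial list of 9 genes, nearly all of it Pecam1, was higher in the controls, at 336, 300 and 309 CPM against 273, 230 and 292 CPM with IFNγ, without overlap. Its markers Cdh5, Kdr, Tagln and Des were at 0 in all 6, and the part of this difference in the results below was not tested. Mitochondrial transcripts made up 6.42% to 7.0% of control counts and 6.17% to 6.81% of IFNγ counts.

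After 2 weeks of IFNγ, 142 of 8516 tested genes differed from the control at an adjusted p under 0.05 in edgeR's quasi-likelihood test, which is 1.67% of the genes tested. Of these, 79 rose (0.928%) and 63 fell (0.74%). The 2 directions were unlike in size. The genes that rose had a median log2 change of 1.60 and 63 of them changed by at least 1, whereas the genes that fell had a median of -0.76 and 12 of them changed by at least 1. The rise was dominated by the known IFNγ programme: interferon-inducible GTPases, the immunoproteasome and other parts of the class I antigen pathway, and antiviral genes. Of the genes that fell, 52 of the 63 belonged to none of the lists examined, as did 31 of the 79 that rose. The lists hold a small part of all tested genes, and the share of all tested genes outside them was not counted. In untreated cells 18 of the 63 were also lower at 3 weeks than at 1 week, as set out further on. With library totals as the only scaling, which moved the median of all genes by 0.084, the calls were 103 higher and 46 lower.

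**Figure D1:**
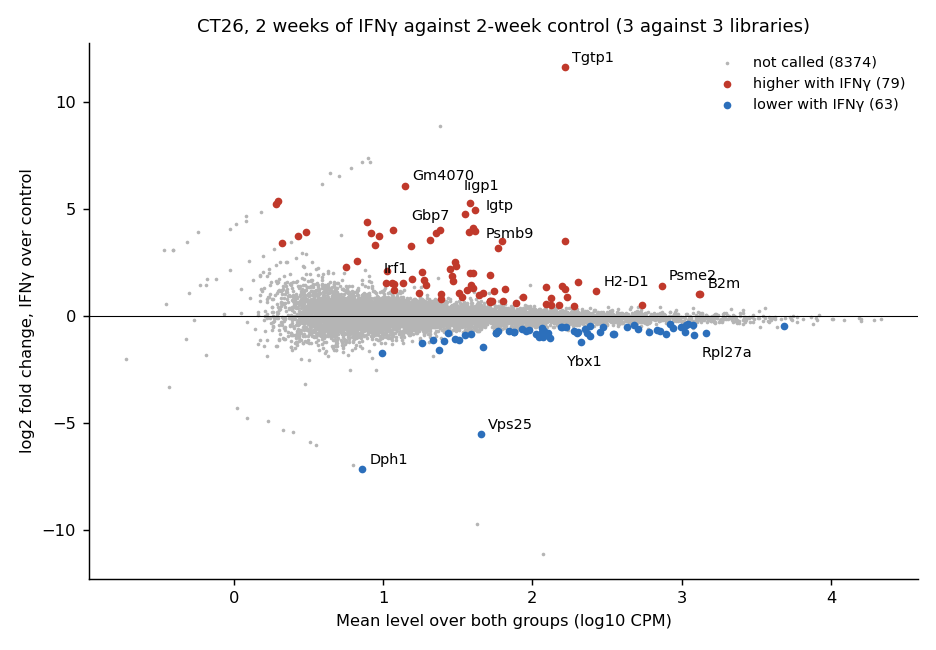
Log2 change of each tested gene between 2 weeks of IFNγ and the 2-week control (vertical) against its mean level over the 6 libraries in log10 CPM (horizontal). Red points are the 79 genes that rose, blue points the 63 that fell and grey points the genes that did not pass the test. Most red points lie above a log2 change of 1, while most blue points lie between 0 and -1.

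Several of the strongest responders carry the 2 DNA elements of the pathway side by side at their start. The sequences below are the RefSeq promoter windows on GRCm38.p6, from 250 bases before to 50 bases after the annotated start, written 5′ to 3′ on the strand of the gene. Capitals mark matches to GAS, spelled TTCNNNGAA and the same on both strands, and to ISRE, spelled GAAANNGAAA or, on the other strand, TTTCNNTTTC. The first 4 are interferon-inducible GTPases of the chromosome 11 clusters, Igtp (chr11:58199306-58199605, plus strand), Irgm2 (chr11:58214727-58215026, plus strand), Tgtp1 (chr11:48992197-48992496, minus strand) and Tgtp2 (chr11:49064163-49064462, minus strand), shown because each holds a GAS match and an ISRE match with 2 bases between them.
Igtp: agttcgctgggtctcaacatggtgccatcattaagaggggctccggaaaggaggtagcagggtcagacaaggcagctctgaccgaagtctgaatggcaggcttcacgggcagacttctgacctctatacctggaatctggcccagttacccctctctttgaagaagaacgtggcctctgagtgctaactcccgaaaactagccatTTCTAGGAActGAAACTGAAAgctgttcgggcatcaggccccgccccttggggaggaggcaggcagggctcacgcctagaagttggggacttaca
Irgm2: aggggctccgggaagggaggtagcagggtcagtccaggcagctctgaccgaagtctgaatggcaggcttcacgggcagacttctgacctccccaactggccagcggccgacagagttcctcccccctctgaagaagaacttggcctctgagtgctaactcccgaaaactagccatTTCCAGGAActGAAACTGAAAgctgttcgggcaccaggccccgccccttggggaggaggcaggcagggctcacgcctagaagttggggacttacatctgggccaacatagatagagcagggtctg
Tgtp1: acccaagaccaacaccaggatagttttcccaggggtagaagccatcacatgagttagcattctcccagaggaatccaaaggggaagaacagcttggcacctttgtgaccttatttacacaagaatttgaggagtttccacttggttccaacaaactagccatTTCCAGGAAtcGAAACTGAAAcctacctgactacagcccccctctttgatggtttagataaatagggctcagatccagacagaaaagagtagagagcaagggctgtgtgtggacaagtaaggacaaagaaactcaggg
Tgtp2: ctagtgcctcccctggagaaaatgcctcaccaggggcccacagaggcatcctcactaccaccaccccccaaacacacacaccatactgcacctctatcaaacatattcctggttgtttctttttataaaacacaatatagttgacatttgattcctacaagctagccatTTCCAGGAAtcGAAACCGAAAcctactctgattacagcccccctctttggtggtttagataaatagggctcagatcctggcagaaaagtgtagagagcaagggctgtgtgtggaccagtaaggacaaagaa
The next pair, Irf1 (chr11:53769764-53770063, plus strand) and Psmb8 (chr17:34197945-34198244, plus strand), hold a GAS match and no ISRE match.
Irf1: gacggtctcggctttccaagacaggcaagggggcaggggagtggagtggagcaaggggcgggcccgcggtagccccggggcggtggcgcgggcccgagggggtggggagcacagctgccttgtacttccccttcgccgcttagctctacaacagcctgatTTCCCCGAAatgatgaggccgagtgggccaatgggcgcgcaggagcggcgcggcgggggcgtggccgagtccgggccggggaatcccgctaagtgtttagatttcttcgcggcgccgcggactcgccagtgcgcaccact
Psmb8: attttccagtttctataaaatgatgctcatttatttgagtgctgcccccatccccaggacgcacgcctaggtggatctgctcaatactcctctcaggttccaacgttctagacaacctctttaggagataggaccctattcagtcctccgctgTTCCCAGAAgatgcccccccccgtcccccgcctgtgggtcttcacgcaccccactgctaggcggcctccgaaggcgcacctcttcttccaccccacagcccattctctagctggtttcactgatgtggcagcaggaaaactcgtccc
The last pair, Gbp2 (chr3:142620413-142620712, plus strand) and B2m (chr2:122147437-122147736, plus strand), hold an ISRE match and no GAS match.
Gbp2: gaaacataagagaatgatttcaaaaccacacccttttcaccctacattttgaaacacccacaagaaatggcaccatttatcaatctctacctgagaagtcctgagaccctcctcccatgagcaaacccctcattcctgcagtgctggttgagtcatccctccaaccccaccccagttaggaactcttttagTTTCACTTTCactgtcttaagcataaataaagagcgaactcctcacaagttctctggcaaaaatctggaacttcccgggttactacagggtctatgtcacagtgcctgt
B2m: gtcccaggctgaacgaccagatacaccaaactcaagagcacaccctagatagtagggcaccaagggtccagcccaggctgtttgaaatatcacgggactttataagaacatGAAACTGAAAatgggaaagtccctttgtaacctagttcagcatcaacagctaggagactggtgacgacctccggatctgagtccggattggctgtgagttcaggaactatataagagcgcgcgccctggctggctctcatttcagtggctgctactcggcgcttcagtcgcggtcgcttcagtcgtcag

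Across the table of promoters, 62 of the 79 genes that rose had a window. A GAS match was present in 15 of the 62 (24.2%), an ISRE match in 22 (35.5%) and either in 28 (45.2%). Over all 27025 genes with a window the shares were 9.55% for GAS and 3.99% for ISRE, and over the 6405 tested genes with one they were 7.87% and 4.12%. Of the 63 genes that fell, 47 had a window, of which 1 held a GAS match (2.13%) and 4 an ISRE match (8.51%). GAS and ISRE matches may overlap each other, and a match is a description of the letters and was not tested as a binding site.

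The receptor and its kinases were present at low levels and no difference passed the test. Ifngr1 and Ifngr2, the receptor chains, had means of 11.6 and 1.58 CPM in controls and 9.16 and 2.32 CPM with IFNγ, with adjusted p of 0.836 and 0.917. Jak1 and Jak2 had means of 10.0 and 4.08 CPM in controls and 12.1 and 4.38 CPM with IFNγ (adjusted p = 0.919 and 0.994). These genes overlapped between groups.

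Stat2 and Irf9, which belong to the type I interferon complex, did not pass the test. Stat2 was at 2.21, 2.30 and 1.93 CPM in controls and 7.15, 1.90 and 8.09 CPM with IFNγ (adjusted p = 0.409). Irf9 had a higher level, 150 ± 13.9 CPM (SD, n = 3) in controls and 124 ± 12.2 CPM with IFNγ (adjusted p = 0.485, edgeR). Among 6 tested interferon regulatory factors and partners, 2 rose. Irf1, an early IFNγ target with a GAS match in the window printed above, went from 10.3, 5.75 and 10.6 CPM to 22.3, 25.6 and 37.6 CPM, a log2 change of 1.67 (SE 0.27, adjusted p = 3.08e-05). Irf7, which amplifies type I interferon production, went from 4.43, 1.15 and 5.78 CPM to 22.3, 17.1 and 13.3 CPM, a log2 change of 2.09 (SE 0.38, adjusted p = 0.000335). Both genes were separated between the groups, the lowest treated library lying above the highest control.

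Feedback inhibitors were mostly quiet. Usp18, which removes ISG15 from proteins and restrains interferon receptor signalling, was the 1 member of 7 tested that rose, from 11.1, 1.15 and 7.71 CPM to 24.1, 13.3 and 24.8 CPM (log2 1.54, SE 0.34, adjusted p = 0.00461). Its lowest treated library lay only a little above its highest control, and its call was lost without control replicate 2, without IFNγ replicate 3 and with only the compared groups in the fit. Socs1, the main inhibitor of the JAK kinases, had 1 read over the 3 controls and 3 reads over the 3 treated libraries, both at or under the limit of 3 counts per library set here for a level, so no fold is given.

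**Figure D2:**
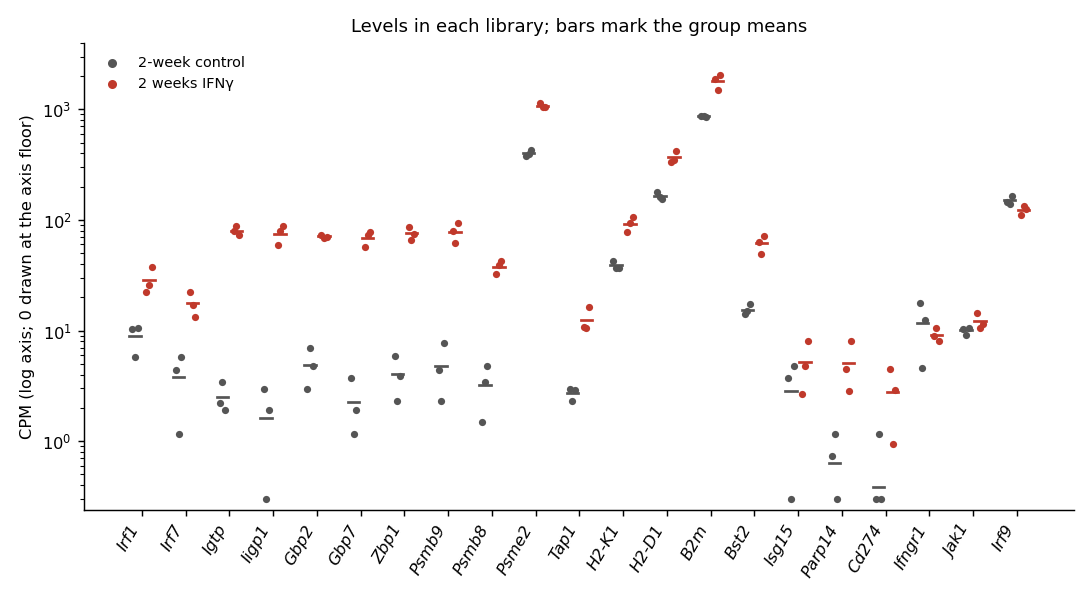
Level of 21 genes in each of the 6 libraries in CPM on a log axis, with grey points for the 2-week control, red points for 2 weeks of IFNγ and a bar at each group mean; values of 0 are drawn at the axis floor. Igtp, Iigp1, Gbp2, Gbp7, Psmb8 and Psmb9 have group means more than a factor of 10 apart, while Ifngr1, Isg15 and Cd274 overlap.

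The interferon-inducible GTPases, which coat and break open the vacuoles of intracellular microbes, showed the largest rise of any list. Of 19 tested members 14 rose and none fell, with a median log2 change of 3.88. Igtp, an immunity-related GTPase also called Irgm3, was at 2.21, 3.45 and 1.93 CPM in controls and 78.6, 87.4 and 72.8 CPM with IFNγ, a log2 change of 4.95 (SE 0.29, adjusted p = 1.31e-16), the smallest p of all genes. Its promoter is the first of those printed above. The guanylate-binding protein Gbp7 went from 3.69, 1.15 and 1.93 CPM to 56.3, 73.1 and 77.4 CPM (log2 4.77, SE 0.32), and Gbp2 from 2.95, 6.90 and 4.82 CPM to 73.3, 69.3 and 70.5 CPM (log2 3.91, SE 0.29). In all 3 genes every treated library exceeded every control by a wide margin.

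Iigp1, the GTPase Irga6, had 1 control library at 0, and rose from 2.95, 0 and 1.93 CPM to 59.0, 79.8 and 87.2 CPM (log2 5.30, SE 0.38, adjusted p = 6.52e-14). Irgm1, a regulator of the other members, was unlike them in being well expressed without IFNγ: it stood at 98.1, 106 and 97.3 CPM in controls and 290, 318 and 303 CPM with IFNγ. The fold was therefore smaller (log2 1.60, SE 0.12), though the replicates were tight and the adjusted p was 1.17e-13. Gbp3 went from 3.69, 1.15 and 2.89 CPM to 35.7, 24.7 and 24.3 CPM (log2 3.30, SE 0.32). Irgm2 and Gbp9 rested on 3 and 1 control reads, and their ratios were 16.2 (95% counting interval 5.26 to 80.7) and 14.2 (2.23 to 594). Gm4951, a relative of Iigp1, had 2 control reads and 60 treated reads, a ratio of 25.1 (6.65 to 212). Gm4070, which shares 94.2% of its 3′ words of 31 bases with Gvin1 and other copies of that large GTPase, had 1 and 111 reads, a ratio of 92.8 (16.3 to 3699). Gm43302 shares all such words with Gbp4, Gbp6 and Gbp9, and the 4 summed rose by 4.01 on the log2 scale (adjusted p = 6.83e-12). The intervals given here and further on cover counting error only.

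Tgtp1 and Tgtp2 encode nearly the same T cell-specific GTPase, and reads were divided between them unevenly. Tgtp1 was at 0 in all 3 controls and at 406, 388 and 192 CPM with IFNγ, at least 115-fold higher when the controls are set to 3 counts per library. Tgtp2 went from 22.1, 34.5 and 25.1 CPM to 218, 337 and 350 CPM. Summed, the pair went from 22.1, 34.5 and 25.1 CPM to 624, 725 and 541 CPM (log2 4.56, adjusted p = 6.13e-24, edgeR). How the counting divided reads between the copies in each library cannot be told from the table.

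Part of the genes for antigen presentation by MHC class I rose. The list of peptide supply and loading had 14 tested members, of which 7 rose and none fell, with a median log2 change of 1.42. The immunoproteasome subunit Psmb9 went from 4.43, 2.30 and 7.71 CPM to 78.6, 61.7 and 94.2 CPM (log2 3.99, SE 0.29, adjusted p = 7.58e-14). Psmb8, the second induced subunit, went from 1.48, 3.45 and 4.82 CPM to 32.2, 38.9 and 42.2 CPM (log2 3.58, SE 0.39, adjusted p = 6.42e-09). Neither gene overlapped between the groups. Psmb10, the third of them, began at 92.9, 89.7 and 76.1 CPM and reached 229, 243 and 218 CPM (log2 1.41, SE 0.12).

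The proteasome activator genes Psme1 and Psme2, which open the core for peptide release, were abundant before treatment. Psme2 stood at 375, 391 and 430 CPM in controls and at 1135, 1041 and 1042 CPM with IFNγ (log2 1.43, SE 0.11, adjusted p = 7.58e-14), and Psme1 rose from 74.5, 66.7 and 65.5 CPM to 191, 145 and 197 CPM (log2 1.37, SE 0.15). Tap1, a chain of the peptide transporter, went from 2.95, 2.30 and 2.89 CPM to 10.7, 10.4 and 16.2 CPM. Its groups did not overlap, yet its log2 change of 2.18 had an SE of 0.63 and an adjusted p of 0.0659, just outside the threshold in edgeR (0.0253 in DESeq2). By contrast, of 34 tested subunits of the constitutive proteasome none rose and 1 fell, Psmd12, a regulatory lid subunit, at a log2 change of -0.49 (SE 0.13, adjusted p = 0.0402). The call of Psmd12 was lost when any 1 of the 6 libraries was left out, with library totals, with no filter on low counts and against the 3-week control.

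The class I chains themselves were already abundant and rose by about a factor of 2. B2m, the light chain shared by all class I molecules, was at 870, 863 and 859 CPM in controls and at 1864, 1501 and 2031 CPM with IFNγ (log2 1.06, SE 0.13, adjusted p = 2.07e-07). H2-D1 went from 180, 160 and 156 CPM to 337, 350 and 423 CPM (log2 1.16, SE 0.13), and H2-K1 from 42.8, 36.8 and 36.6 CPM to 77.8, 93.1 and 106 CPM (log2 1.25, SE 0.22). The non-classical H2-T22 rose more, from 11.8, 11.5 and 13.5 CPM to 54.5, 38.0 and 43.3 CPM (log2 1.87, SE 0.22). These 4 of 11 tested class I genes passed the test, none fell, and the list had a median of 1.16. Class I genes are close relatives, so reads may have been shared between H2-D1, H2-K1 and their neighbours. Nlrc5, the class I transactivator, had 3 control reads and 13 treated reads, a ratio of 3.62 (95% counting interval 0.996 to 19.8), and an adjusted p of 0.493.

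MHC class II, which IFNγ induces in many tissues through the transactivator CIITA, was not detected. Ciita and Cd74, the invariant chain, were at 0 in all 6 libraries. Over the 45 CT26 libraries of every time and treatment, Ciita had 9 reads in 7 libraries and Cd74 had 3 reads in 3 libraries. In the 45 YUMM2.1 libraries the corresponding totals were 65 and 69 reads. In the 2-week groups a level under 3 counts per library, 1.73 to 3.45 CPM, would not have been seen.

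**Figure D3:**
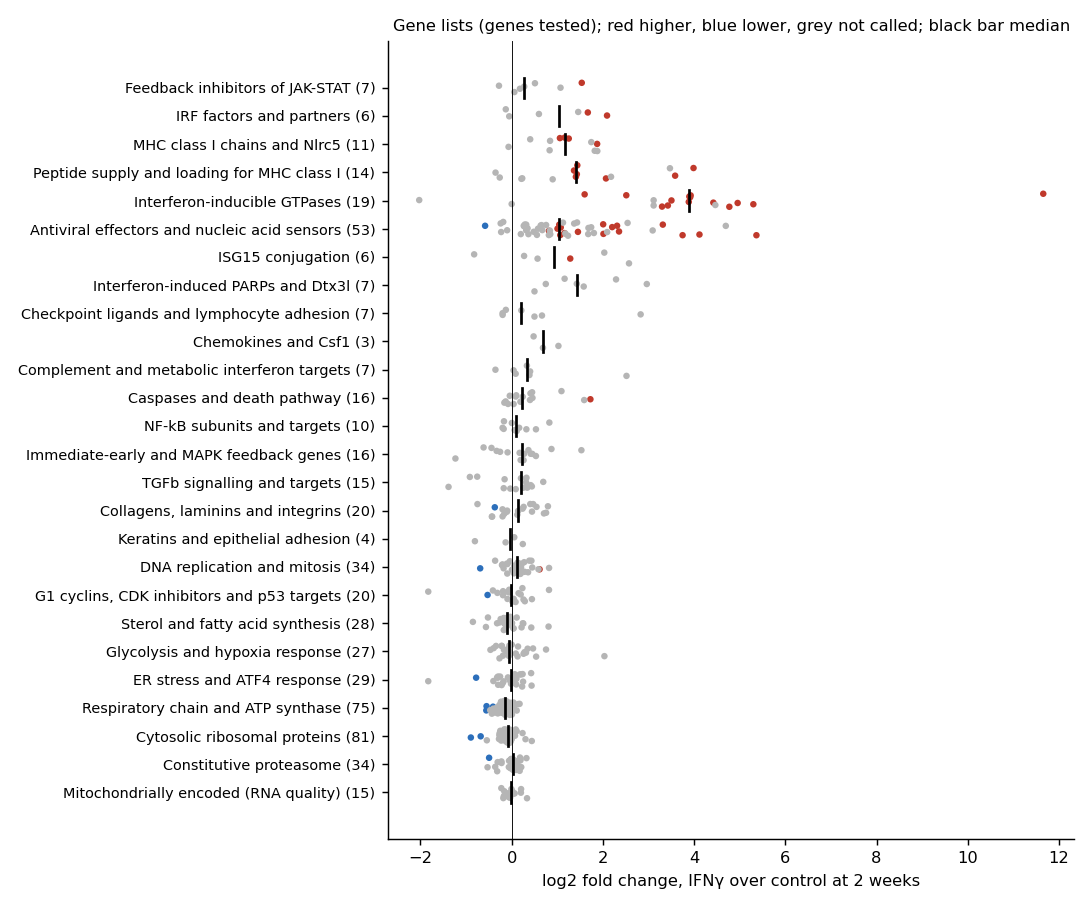
Log2 change between 2 weeks of IFNγ and control (horizontal) for every tested member of each gene list shown; red points rose, blue points fell, grey points did not pass the test, and a black bar marks each list's median. The GTPase, peptide supply, class I, antiviral, IRF and PARP lists have medians above 1, and the metabolic, ribosomal and cell cycle lists lie close to 0.

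Antiviral effectors and nucleic acid sensors rose in part. Of 53 tested members 16 rose and 1 fell, with a median log2 change of 1.04. Zbp1, a sensor of Z-form nucleic acids that can start necroptosis, went from 5.90, 2.30 and 3.85 CPM to 86.7, 65.5 and 75.1 CPM (log2 4.12, SE 0.29, adjusted p = 2.0e-14). Bst2, or tetherin, which holds budding virus at the cell surface, went from 14.0, 14.9 and 17.3 CPM to 63.5, 49.4 and 71.1 CPM (log2 2.01, SE 0.20). Nmi, an interferon-induced protein, rose by 2.20 (SE 0.23) and Rtp4, a chaperone that restricts flaviviruses, by 2.35 (SE 0.25), both on the log2 scale. For these genes the groups were fully separated.

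Ifih1, the RNA sensor MDA5, was at 0 in the controls and at 4.47, 2.85 and 4.62 CPM with IFNγ, at least 1.40-fold higher against 3 counts per library, with an adjusted p of 0.00292. Against the 3-week control its change of 1.36 did not pass (adjusted p = 0.620). The member that fell was Ifitm1, a restriction factor of virus entry, at -0.58 on the log2 scale, a call lost without control replicate 1, without IFNγ replicate 1 or 3 and against each other control. Several classical members did not pass the test. Isg15, a ubiquitin-like modifier, was at 3.69, 0 and 4.82 CPM in controls and 2.68, 4.75 and 8.09 CPM with IFNγ (adjusted p = 0.690). Ifit1, which binds viral RNA caps, was at 5.90, 14.9 and 7.71 CPM against 21.4, 12.3 and 12.7 CPM (log2 0.76, SE 0.37, adjusted p = 0.491). Sp100, a nuclear body protein, was at 15.5, 17.2 and 12.5 CPM against 14.3, 19.0 and 23.1 CPM (adjusted p = 0.709). All 3 overlapped between the groups. Ifit3, a partner of Ifit1, was at 0.738, 1.15 and 0 CPM against 4.47, 1.90 and 5.20 CPM, without overlap. It had 2 control reads and 16 treated reads, a ratio of 6.69 (1.57 to 59.97), and an adjusted p of 0.172. Of the 6 tested genes of ISG15 conjugation, 1 rose, the conjugating enzyme Ube2l6, from 92.2, 95.4 and 102 CPM to 234, 249 and 224 CPM (log2 1.28, SE 0.15, adjusted p = 3.97e-08).

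The interferon-induced PARPs, which attach ADP-ribose to proteins, all had positive changes but none of the 7 tested passed. The median of the list was 1.43. Parp14, the member the study takes further, had 2 reads over the 3 controls and 22 over the treated libraries, which read 0.738, 1.15 and 0 CPM against 4.47, 2.85 and 8.09 CPM. The groups did not overlap, and the ratio of reads was 9.20 with a 95% counting interval of 2.26 to 80.7, but the adjusted p was 0.111. Parp9 was at 1.48, 6.90 and 4.82 CPM against 15.2, 9.49 and 12.1 CPM (log2 1.58, SE 0.45, adjusted p = 0.0611). Parp12 had 3 control reads and 19 treated reads, a ratio of 5.30 (1.56 to 27.9), and an adjusted p of 0.360. Dtx3l, the ubiquitin ligase that pairs with PARP9, was at 2.21, 2.30 and 1.93 CPM against 3.57, 0.95 and 8.67 CPM (adjusted p = 0.629). The mean of the 0-, 1- and 3-week controls in place of the 2-week control, a choice made after the data were seen, put 3 of the 7 past the threshold, among them Parp14 (log2 3.60, adjusted p = 0.00057) and Parp9 (log2 1.57, adjusted p = 0.00199), and DESeq2 put 1 past it.

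Cd274, which encodes PD-L1, had 1 read over the controls and 11 over the treated libraries, which read 4.47, 0.95 and 2.89 CPM. The ratio was 9.20 (95% counting interval 1.34 to 396) and the adjusted p 0.303, and 1 treated library lay below the highest control. None of the 7 tested checkpoint and adhesion genes passed. Lgals9, a galectin, was at 21.4, 14.9 and 25.05 CPM against 38.4, 32.3 and 28.9 CPM, without overlap (adjusted p = 0.218), and Pvr and Vcam1, at means of 11.6 and 36.8 CPM in controls and 15.97 and 34.0 CPM with IFNγ, overlapped. Chemokine genes were scarcely read: 3 of the 17 on the list reached the test and none passed, and Cxcl10, a T cell attractant, had means of 1.52 and 2.92 CPM. Ido1, which breaks down tryptophan, was at or under the limit of 3 counts per library in both groups.

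Outside the lists examined, which hold a small part of all tested genes, were 31 of the 79 genes that rose. Of the genes given here, Ly6a, Gbp2b and Apol9a were named after their values were seen. Ly6a, or Sca-1, a surface marker inducible by interferon, had the strongest evidence, rising from a mean of 11.6 to 107 CPM (log2 3.19, adjusted p = 5.9e-13). Gbp2b, a further guanylate-binding protein that the list did not hold, rose from 2.99 to 45.5 CPM (log2 4.02), and Apol9a, an apolipoprotein L gene, from 21.0 to 82.5 CPM (log2 1.93). Apol10b, from the same family and named by rule, was at 0 in the controls and at 4.47, 4.75 and 2.31 CPM with IFNγ, at least 1.35-fold higher against 3 counts per library (adjusted p = 0.00971). Its call was lost without control replicate 1 (adjusted p = 0.0765) or 3 (0.0525), and against the 3-week control (0.110). Within the lists, the caspase Casp1, the protease of the inflammasome, was the 1 of 16 tested caspases and death genes to rise (log2 1.73, SE 0.33, adjusted p = 0.000798). A smaller rise was seen for Mcm4, a subunit of the replication helicase, from 65.7, 58.6 and 60.7 CPM to 85.8, 95.0 and 102 CPM (log2 0.61, SE 0.16, adjusted p = 0.0243), the 1 of 34 replication and mitosis genes to rise. The rise of Mcm4 was no longer called in 5 of the 6 fits that left out 1 library (all but IFNγ replicate 1), nor against the 0-week control, the 3-week control or the mean of the other controls. In the same list Ube2c, a ubiquitin-conjugating enzyme of mitotic exit, fell from 148, 146 and 150 CPM to 84.0, 80.7 and 107 CPM (log2 -0.69, SE 0.14, adjusted p = 0.00152). The call of Ube2c was lost against the 3-week control.

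The genes that fell were more abundant and shorter than the tested genes as a whole. How far this reflects which small changes can be called at this depth was not tested. Their median level was 156 CPM against 15.8 CPM over all tested genes, and their median transcript length 1026 bases against 1937.8 bases. Akr1c18, a steroid-metabolising reductase, fell from 80.4, 57.5 and 68.4 CPM to 21.4, 31.3 and 23.1 CPM (log2 -1.46, SE 0.30, adjusted p = 0.00219). Ybx1, a cold-shock domain protein that binds RNA and DNA, went from 329, 284 and 282 CPM to 102, 137 and 145 CPM (log2 -1.22, SE 0.20, adjusted p = 3.98e-05). Bag1, a co-chaperone of HSP70, went from 43.5, 40.2 and 39.5 CPM to 22.3, 17.1 and 19.1 CPM (log2 -1.08, SE 0.23, adjusted p = 0.00322). In these 3 genes no treated library reached the lowest control. With other controls, however, Ybx1 changed sign against the 3-week control, and Akr1c18 against the 0-week control and the mean of the other controls.

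Other large drops were not firm to the loss of 1 library. Mia2, of protein export from the endoplasmic reticulum, went from 19.9, 6.90 and 18.3 CPM to 2.68, 6.65 and 4.62 CPM (log2 -1.73, SE 0.47, adjusted p = 0.0407), 1 treated library lying just under the lowest control. Thap3, Psip1, Mettl26 and Alox8 fell by 1.23, 1.18, 1.12 and 1.12 on the log2 scale, with adjusted p of 0.0345, 0.0217, 0.0282 and 0.0424. Each of these 5 calls was lost when any of several single libraries was left out, the adjusted p then reaching 0.296 for Mia2, 0.232 for Thap3, 0.286 for Psip1, 0.273 for Mettl26 and 0.322 for Alox8.

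Cst3, the secreted protease inhibitor cystatin C, fell by 0.83 on the log2 scale (SE 0.12, adjusted p = 8.07e-06), from 408, 482 and 454 CPM to 273, 235 and 245 CPM. The iron store Fth1 and the glutathione peroxidases Gpx1 and Gpx4, named after their values were seen, also fell, with log2 changes of -0.48, -0.78 and -0.74 and adjusted p of 0.023, 1.3e-06 and 1.6e-05. The counts of Gpx4 are uncertain, since 64.0% of its 3′ words of 31 bases also occur in other genes. Cdkn1a, the cyclin-dependent kinase inhibitor p21, fell from 218, 203 and 177 CPM to 137, 143 and 136 CPM (log2 -0.53, SE 0.12, adjusted p = 0.00451), the 1 of 20 G1 and p53 genes to pass. Its call was lost without control replicate 1, with no filter on low counts, and against the 3-week control and the mean of the other controls. Fn1, or fibronectin, fell by 0.37 (SE 0.10) from a mean of 937 to 725 CPM, the 1 of 20 tested collagen, laminin and integrin list members to pass. Its call was lost when any 1 of the 6 libraries was left out, with library totals, with no filter on low counts and against each other control. Herpud1, of endoplasmic reticulum protein disposal, was the 1 of 29 ER stress genes to fall (log2 -0.78, SE 0.20, adjusted p = 0.0292). That call was lost in 5 of the 6 fits that left out 1 library (all but IFNγ replicate 1), with library totals, with no filter and against the 3-week control.

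Of 75 tested respiratory chain and ATP synthase genes 3 fell, Atp5g3, Ndufb6 and Ndufa4, with log2 changes of -0.56, -0.55 and -0.41. The list had a median of -0.14, which was -0.05 with library totals as the only scaling and turned to 0.059 against the 0-week control, and against the 3-week control none of the 75 fell. In 28 of the 75 all treated libraries were below all controls, against 9.86% of all tested genes below and 8.15% above. Of 81 tested ribosomal protein genes 2 fell. Rpl27a went from 1970, 1365 and 1419 CPM to 898, 749 and 910 CPM (log2 -0.89, SE 0.15, adjusted p = 6.18e-05), and Rps10 from 905, 870 and 886 CPM to 542, 536 and 583 CPM (log2 -0.68, SE 0.12, adjusted p = 0.000312). The remaining 79 did not pass, the list's median was -0.08 and 0.00 with library totals as the only scaling, and ribosomal protein genes took 14.8% to 16.1% of control counts and 14.3% to 16.5% of IFNγ counts. No member of the sterol, glycolysis, NF-κB, TGFβ or immediate-early lists passed in either direction, out of 28, 27, 10, 15 and 16 tested.

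A pair of the largest drops were shared with a neighbouring gene. Vps25, an ESCRT subunit, went from 73.8, 114 and 78.0 CPM to 2.68, 1.90 and 1.16 CPM, while Ramp2, a receptor partner that shares sequence with its 3′ end, went from 0 in all controls to 60.8, 48.4 and 35.8 CPM. Of the 31-base words in the last 500 bases of Vps25, 85.4% also occurred in other genes. The pair summed read 73.7, 114 and 78.1 CPM in controls and 63.4, 50.3 and 37.0 CPM with IFNγ. Dph1, of diphthamide synthesis, was at 8.85, 11.5 and 23.1 CPM in controls and at 0 with IFNγ, at least 5.99-fold lower, but together with Ovca2, which shares part of its 3′ sequence, the values were 17.7, 11.5 and 23.1 CPM against 12.5, 13.3 and 13.9 CPM. The changes of Vps25 and Dph1 taken singly are therefore uncertain. Summed with its neighbour, the change of Vps25 was -0.82 (adjusted p = 0.0142) and that of Dph1 -0.41 (adjusted p = 0.801). Rps3a3, a ribosomal protein pseudogene, fell by 1.61 (adjusted p = 0.0445), but summed with Rps3a1 and Rps3a2 the change was -0.07 (adjusted p = 0.910). At least 50% of such words were shared in 7 of the 79 genes that rose and 5 of the 63 that fell.

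The 2-week control was set against the other CT26 controls, and the 2 directions differed in how far they rested on it. Against the 3-week control in place of the 2-week control, a comparison chosen after the data were seen that uses the same treated libraries, 55 of the 79 genes that rose were again called higher and 8 of the 63 that fell were again called lower. Against the 0-week control the counts were 59 and 24. Over all tested genes, 62 were higher (0.728%) and 13 lower (0.153%) against the 3-week control. Against the 0-week control 94 were higher (1.1%) and 39 lower (0.458%). The median change against the 3-week control was 1.38 for the 79 genes and -0.22 for the 63. Between untreated cells alone, at 3 weeks against 1 week with no 2-week library involved, 29 genes were higher (0.341%) and 55 lower (0.646%), and the 55 held 18 of the 63 genes that fell with IFNγ at 2 weeks. The median change of the 63 between those controls was -0.30, against 0.02 over all tested genes. For the 79 that rose it was 0.05, with 7 called higher and 3 lower.

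Ybx1 shows the pattern best. Its control means at 0, 1, 2 and 3 weeks were 329, 323, 298 and 126 CPM, and its means under IFNγ at 1, 2 and 3 weeks were 319, 128 and 207 CPM. The low level was thus reached at 2 weeks with IFNγ and at 3 weeks without it, and the control at 3 weeks was lower than at 1 week by 1.35 on the log2 scale (SE 0.19, adjusted p = 2.67e-05). Rps10 had control means of 887, 1024, 887 and 622 CPM and 932, 554 and 527 CPM under IFNγ, with a control change from 1 to 3 weeks of -0.72 (SE 0.12, adjusted p = 0.000506).

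Rpl27a and Cst3 fell in the controls too, by 0.65 (adjusted p = 0.0142) and 0.48 (adjusted p = 0.0333) between 1 and 3 weeks. Akr1c18 had another course: its control means were 15.7, 13, 68.8 and 57.0 CPM, so the level with IFNγ at 2 weeks, 25.3 CPM, was below the 2-week control and above the 0-week and 1-week controls. The part of time in culture in the fall of these genes was not tested beyond these values. Between the 2-week and the 0-week control, 21 genes were called (0.247%), 20 of them higher at 2 weeks.

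**Figure D4:**
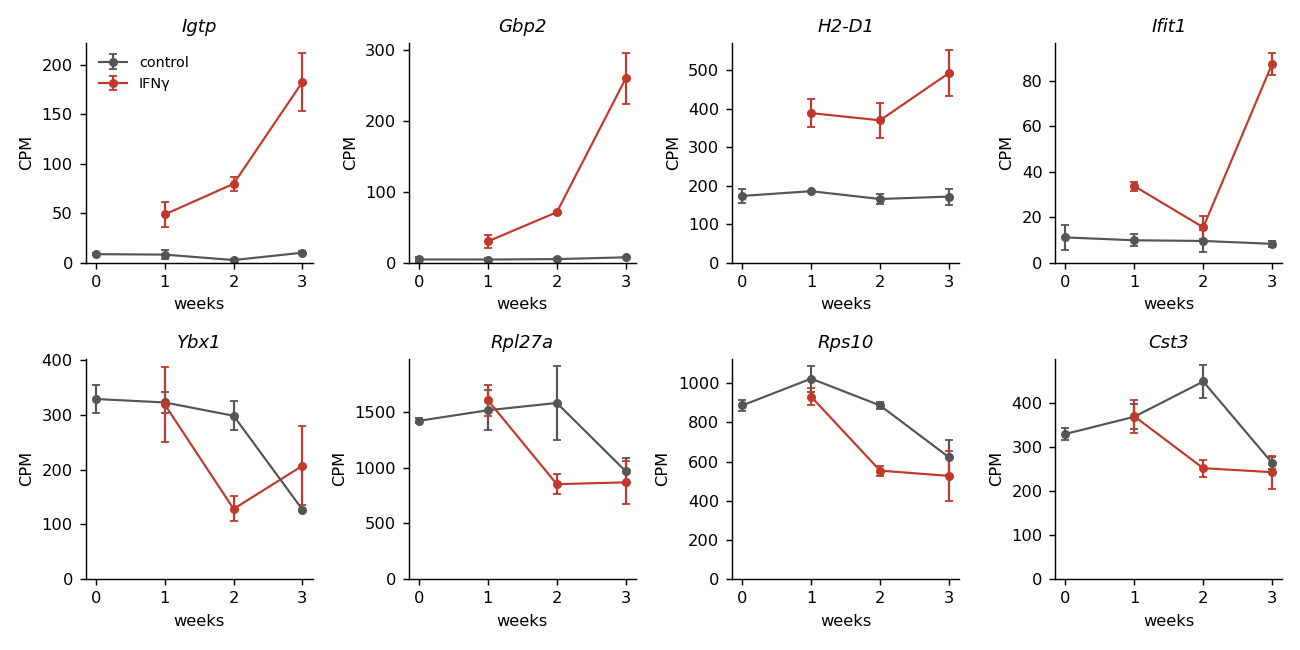
Mean level in CPM (error bars SD, 3 libraries each) of 8 genes at 0, 1, 2 and 3 weeks in control cultures (grey) and cultures kept in IFNγ without a further dose (red). Igtp, Gbp2 and H2-D1 are separated at each time of exposure, whereas Ybx1, Rpl27a, Rps10 and Cst3 are low at 2 weeks under IFNγ and low in the control by 3 weeks.

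Part of the genes that rose at 2 weeks were also called higher in cultures that share no library with this comparison. After 24 h of a first IFNγ dose, 151 genes were higher (1.77%), among them 63 of the 79, while 2 of the 79 were called lower, and the median log2 change of the 79 was 2.63. After 1 week 56 genes were higher (0.658%), among them 46 of the 79 with a median of 1.21, and after 3 weeks 293 were higher (3.44%) and 323 lower (3.79%), the higher ones holding 63 of the 79 with a median of 2.24 and the lower ones 1 of the 79. In YUMM2.1 cells after 2 weeks, where 91 of 10339 tested genes were higher (0.88%), 43 of the 79 were among them and the median was 2.37. Of the 63 genes that fell, 7 were called lower after 24 h, 5 after 1 week, 18 after 3 weeks and 3 in YUMM2.1. Over all tested genes, 23 (0.27%), 6 (0.0705%), 323 (3.79%) and 22 (0.213%) were called lower in these comparisons. The changes of 34, 46, 53 and 25 of the 63 were negative there, with medians of -0.07, -0.11, -0.24 and 0.05. The 1-week and 3-week treated groups each hold 1 library with under 25% of the median depth of the line.

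**Figure D5:**
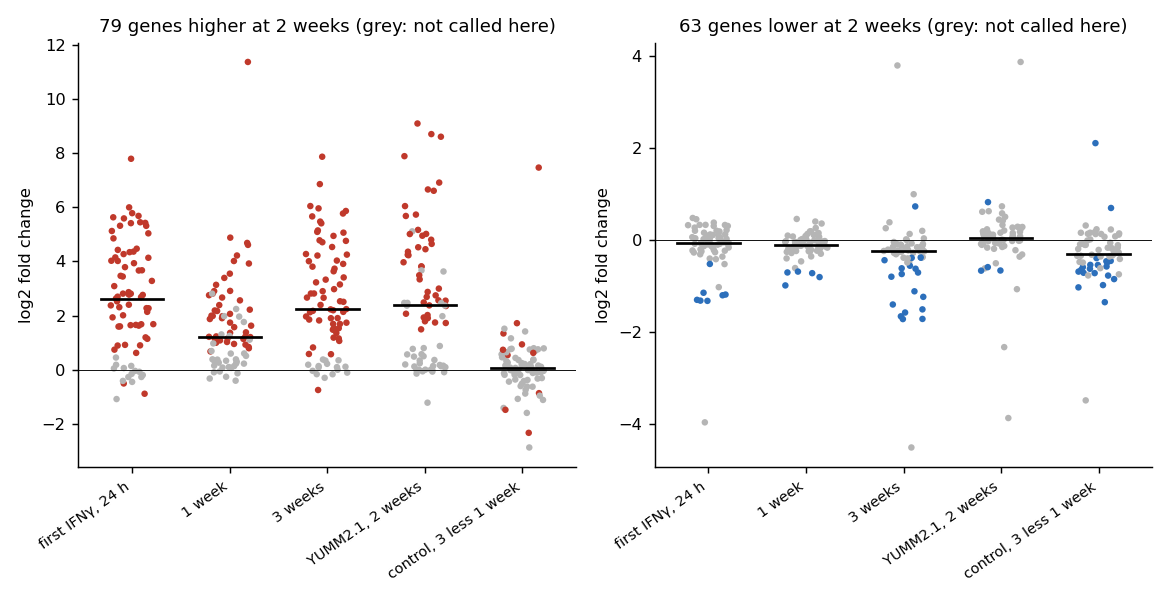
Log2 change of the 79 genes that rose (left) and the 63 that fell (right) at 2 weeks, in 5 comparisons that use none of the 6 libraries; coloured points passed the test there, grey points did not, and black bars are medians. The medians of the 79 lie between 1.21 and 2.63 in the 4 IFNγ comparisons and at 0.05 between the controls, and those of the 63 lie between -0.30 and 0.05.

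The 2-week response was smaller than the first response for part of the programme. The first response was read 24 h after a dose and the 2-week response without a fresh dose. Length of exposure and time since the last dose therefore cannot be told apart here. Of all tested genes 41 (0.481%) differed between the 2-week response and the 24 h response, 31 of them having a lower log2 change at 2 weeks. Leaving out one 2-week library at a time gave 19 to 35 genes. The 31 held 3 antiviral, 2 peptide supply and 2 ISG15 conjugation genes and 1 GTPase. They also held 1 gene each of the constitutive proteasome, ER stress and respiratory chain lists. Not all were induced genes with a smaller rise, as Cst3 among them fell at 2 weeks. Ube2l6 rose by 1.28 at 2 weeks and by 2.86 (SE 0.15) after 24 h, a difference of -1.58 (SE 0.22, adjusted p = 4.39e-05). Irgm1 rose by 1.60 and 2.68, a difference of -1.08 (SE 0.17, adjusted p = 0.000313), and the corresponding means under IFNγ were 304 CPM at 2 weeks and 529 CPM at 24 h. Psmb10 and Psme2 differed in the same direction, by -0.86 and -0.84.

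Ifit1 differed most in size among the antiviral genes: its mean under IFNγ was 141 CPM at 24 h, 33.7 CPM at 1 week, 15.5 CPM at 2 weeks and 87.5 CPM at 3 weeks, and the difference between the 2-week and 24 h responses was -2.89 (SE 0.49, adjusted p = 0.00105). Usp18 differed by -2.40 (SE 0.48, adjusted p = 0.00676) and Sp100 by -1.78 (SE 0.34, adjusted p = 0.00379). H2-D1 did not follow, with changes of 1.16 at 2 weeks and 0.74 at 24 h and a difference of 0.42 (SE 0.18, adjusted p = 0.377). Of the 53 tested antiviral genes, 16 rose at 2 weeks, 39 at 24 h, 18 at 1 week and 41 at 3 weeks, and of the 19 GTPases 14, 16, 10 and 17. Those counts differ in depth and spread, and the difference itself was called for 3 antiviral genes and 1 GTPase, all lower at 2 weeks than at 24 h.

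Between 2 and 3 weeks the response differed in 14 genes (0.164%), 9 being more positive at 3 weeks. Leaving out one 2-week library at a time gave 4 to 10, and leaving out the 2 shallow CT26 libraries together, 1 of them of the 3-week treated group and 1 of the 1-week treated group, gave 36. Gbp3 rose by 3.30 at 2 weeks and 6.85 at 3 weeks, a difference of 3.56 (SE 0.65, adjusted p = 0.0146). Ifit1 differed by 2.68 (SE 0.51, adjusted p = 0.00913), Sp100 by 1.83 (SE 0.35, adjusted p = 0.00913) and H2-T22 by 1.45 (SE 0.32, adjusted p = 0.0392). Ybx1 differed by 1.95 (SE 0.28, adjusted p = 0.000191), its change being -1.22 at 2 weeks and 0.73 at 3 weeks against a control that was itself low by then. Igtp and B2m had differences of -0.74 and 0.10, neither of which passed.

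Between the lines, 29 genes (0.28%) differed in their 2-week response, 27 of them having a lower log2 change in CT26. Leaving out one 2-week CT26 library at a time gave 18 to 29. H2-D1 rose by 1.16 in CT26 and by 3.34 (SE 0.19) in YUMM2.1, a difference of -2.16 (SE 0.25, adjusted p = 8.12e-09). Psmb10 differed by -1.14 (SE 0.20, adjusted p = 0.000475) and Irgm1 by -1.13 (SE 0.21, adjusted p = 0.000865). All of these genes had a higher mean in the CT26 controls than in the YUMM2.1 controls. In the scaling of both lines, H2-D1 went from 176 to 398 CPM in CT26 and from 20.1 to 199 CPM in YUMM2.1. In the same order of lines, Psmb10 went from 91.8 to 247 and from 47.7 to 283 CPM. Irgm1 went from 107 to 327 and from 55.6 to 374 CPM. Ybx1, Bag1 and Pold4, a DNA polymerase delta subunit, differed by -1.71, -1.89 and -1.20, as they fell in CT26 and had changes of 0.50, 0.82 and 0.42 in YUMM2.1.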

How the data were processed

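Gene-level RNA was measured by 3′ digital gene expression. The deposited table holds counts per gene, which the authors made with Salmon 0.13.1 (mm10 is the build named in the submitters' processing notes) and imported with tximport. The values are whole numbers for 53697 genes and 90 samples. Samples were grouped by their labels. Here all 45 CT26 libraries in 15 groups were fitted together with edgeR 4.0.16 (TMM scaling, filterByExpr minimum count 10, quasi-likelihood test, Benjamini-Hochberg adjustment over 8516 genes, threshold 0.05), and the line comparison used all 90 libraries and 10339 genes. The code was tested on simulated data. The labels speak of triplicate experiments, and p-values measure the spread between these cultures of 1 line. The study left out outlying CT26 and YUMM2.1 libraries that it does not name, and all are kept here.

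Named genes are those with the 10 largest and 10 smallest changes among called genes with separated groups, a set of IFNγ pathway genes whatever their values, up to 4 of each list with the smallest p, and the 5 with the smallest p in each difference between responses. Members, lists and rules were chosen with earlier results of these data known. Promoters are from RefSeq (GRCm38.p6). Alternatives tried were DESeq2 1.42.0, other scalings, no filter, other fits, other controls, left-out libraries and summed genes.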

Additional observations from a re-analysis of the deposited data

Results flagged for a closer look

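Each value here marks a response that differed between times of exposure or between lines by a test of the difference itself (edgeR's quasi-likelihood test, Benjamini-Hochberg adjusted). Between the 2-week response and the first 24 h response 41 genes differed, and the 5 with the smallest p were Ube2l6 (log2 difference -1.58), Cst3 (-1.14), Irgm1 (-1.08), Bola1 (-1.20) and Ifit1 (-2.89). Ube2l6, Irgm1 and Ifit1 are interferon targets with a smaller response at 2 weeks. Cst3 and Bola1, the latter a mitochondrial iron-sulphur protein, fell at 2 weeks by 0.83 and 0.82 and had changes of 0.30 and 0.38 at 24 h that did not pass.

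Between the 3-week and the 2-week response 14 genes differed, led by Ybx1 (1.95), Gm43558 (-1.59), Sp100 (1.83), Ifit1 (2.68) and Gbp3 (3.56). Gm43558 is annotated only as a transcript still to be characterised, and 82.8% of the 31-base words at its 3′ end also occur in other genes, so its counts are uncertain. Its mean was 94.8 CPM in the 2-week control and 173 CPM with IFNγ, against 219 and 120 CPM at 3 weeks.

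Between CT26 and YUMM2.1 at 2 weeks 29 genes differed, led by H2-D1 (-2.16), Ybx1 (-1.71), Bag1 (-1.89), Psmb10 (-1.14) and Pold4 (-1.20). H2-D1 and Psmb10 rose in both lines, from a higher control mean in CT26, as given above. How class I reads were assigned in each line was not tested, as set out above for H2-D1. Ybx1, Bag1 and Pold4 fell in CT26, and of these Bag1 was called higher in YUMM2.1 (log2 0.82, adjusted p = 0.034).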

How the results depend on the processing

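The count of genes called at 2 weeks, 142, stayed between 125 and 186 under the other scalings, tools, filters and fits, the 0-week control and the mean of the other controls, and between 101 and 110 when each of the 6 libraries was left out. With 1 library left out, 64 to 71 genes were higher and 37 to 41 lower, against 79 and 63 with all. The total was 75 with an added limit of 1 on the log2 change, and 75 against the 3-week control, chosen after the data were seen. The replicate numbers did not pair the samples: same-numbered control and IFNγ libraries deviated from their group means with correlations of 0.008, 0.084 and 0.004 over 2939 genes, and not every library correlated best with its own number. With the replicate block over all groups it was 142 (139 shared genes), and that block changed no count by over 1.5 times. With the block and only the compared groups the count for 3 weeks less 2 weeks was 5 and that for CT26 less YUMM2.1 was 58.

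The smaller counts moved more. DESeq2 gave 100 genes for 2 weeks less 24 h, 61 for 3 weeks less 2 weeks, 63 for CT26 less YUMM2.1 and 51 for the 2-week less the 0-week control. With no filter on low counts the counts were 88 for 2 weeks less 24 h, 100 for 3 weeks less 2 weeks and 84 for the controls. Library totals gave 31 and leaving out the shallow libraries 36 for 3 weeks less 2 weeks, and with only the compared groups in the fit that count was 2 and the control comparison 93. Leaving out 1 library gave 19 to 35 genes for 2 weeks less 24 h (22 and 27 without control replicate 2 or 3, 25 and 19 without IFNγ replicate 1 or 3), 4 to 10 for 3 weeks less 2 weeks (4, 9 and 4 without control replicates 1, 2 and 3, 9 without IFNγ replicate 1), 18 to 29 between the lines (18 without IFNγ replicate 3) and 10 to 22 between the controls (10 without control replicate 2).

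Of the named genes Ybx1 reversed against the 3-week control (log2 0.023), as did Dph1 (0.00) and Ifngr1 (0.032, and -0.74 to 0.057 when each library was left out). Akr1c18 reversed against the 0-week control (0.67) and the mean of the other controls (0.14). Values that never passed also changed sign against the 0-week, 3-week and mean controls: Socs1 to -0.89, -1.05 and -0.69, Jak1 to -0.011, -0.47 and -0.089, and Jak2 to -0.62, -0.34 and -0.14, and Jak2 ran from -0.18 to 0.53 when each library was left out, being -0.08 and -0.18 without control or IFNγ replicate 3. The causes were not tested. Depth limits genes under about 3 CPM, where 1 library holds 3 reads or fewer.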

Other observations

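The 2-week IFNγ culture was also sampled 2 h and 24 h after a further dose, in 6 libraries outside the comparison above. Mean levels 24 h after the dose were 230 CPM for Igtp and 430 CPM for Gbp2, above the 79.6 and 71.0 CPM of the cells without it. Cd274 read 12.7 CPM 24 h after the dose and 2.77 CPM without it. Ybx1 read 147 and 131 CPM 2 h and 24 h after the dose and 128 CPM without it, and Rps10 670 and 621 CPM against 554 CPM. Ifit1 read 22.4 CPM 24 h after the dose in these cells, and 141 CPM 24 h after a first dose in cells not exposed before. These values are given without a test.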
